A study of Homo sapiens with 9 samples.

Results

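The genes described here encode the proteins of the cytosolic and the mitochondrial ribosome. They were chosen by symbol (RPL, RPS, RPLP and RPSA names for the cytosolic particle, MRPL and MRPS names for the mitochondrial one), without pseudogenes and antisense RNAs. The choice gave 122 of the 14884 genes named on the array, 49 cytosolic and 73 mitochondrial. The probe set with the highest mean stood for each gene, and a gene was tested if its log2 intensity reached 5 on at least 3 of the 9 arrays. That left 48 cytosolic members (30 named for the large and 18 for the small subunit) and 73 mitochondrial members (48 named for the large and 25 for the small subunit) among 12155 tested genes. These counts follow the letter L or S in the symbol, and the place of each protein in the ribosome was not checked. The member left out was RPL10L, a paralog of RPL10, which reached 5 on 0 arrays and had a mean of 4.06. The members with the lowest means inside the filter were RPL22 at 6.05, MRPL23 at 6.05 and RPL3L at 6.10, each above 5 on all 9 arrays.

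The study hybridised 9 Affymetrix whole-transcript arrays with RNA of EA.hy926, an established human line made by fusing umbilical vein endothelial cells with a lung carcinoma line. The 3 groups were unexposed controls, dishes given silver nanoparticles of 5 nm and dishes given silver nanoparticles of 100 nm, with 3 arrays each, numbered 1 to 3. Exposure lasted 6 h, at a concentration near the LD50 of the particles. No genetic change and no second agent is named for any group, and 1 cell line carries all the results. No label says whether the arrays of a group stand for independent cultures; the p-values then speak only of the spread among these arrays, which may be technical.

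A ribosome is built from a large and a small subunit, each a scaffold of ribosomal RNA with a set of proteins bound to it. The cytosolic ribosome makes nearly all proteins of the cell, and most of its protein mRNAs start with a 5′ terminal oligopyrimidine tract (5′TOP), a run of C and T bases right at the transcription start that places their translation under the control of the mTOR pathway. The mitochondrial ribosome translates the few mRNAs of the mitochondrial genome, which encode core subunits of the respiratory chain. Its RNAs come from the mitochondrial genome, while all its proteins are encoded in the nucleus, made in the cytosol and imported. Many of its proteins have bacterial counterparts, and others were added in the course of mitochondrial evolution.

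The start sites of both sets carried different sequences. In RefSeq's GRCh38.p14 annotation, 43 of the 48 tested cytosolic and 65 of the 73 mitochondrial members had a listed start. A 5′TOP start (C at the first base followed by 4 bases that are each C or T) was present at 30 of 52 cytosolic starts (57.7%), at 6 of 81 mitochondrial starts (7.41%) and at 4.54% of 22199 protein-coding starts. The windows below hold 15 bases before the start and 15 from it, and are shown because the share of such starts differs between the 2 sets, although not every cytosolic start has the run. Capitals mark the pyrimidine run from the first transcribed base. The first 4 genes are cytosolic members with such a run (RPL36 at chr19:5690280-5690309, RPL12 at chr9:127451392-127451421, RPS6 at chr9:19380222-19380251 and RPS19 at chr19:41860240-41860269, the middle pair on the minus strand). RPS19 has a further listed start (chr19:41860389-41860418), not printed, which has no such run.
RPL36: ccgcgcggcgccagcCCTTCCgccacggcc
RPL12: ccgcgcgatttccggCCTCTCggctttcgg
RPS6: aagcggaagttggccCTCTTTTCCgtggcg
RPS19: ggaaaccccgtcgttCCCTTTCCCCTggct

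RPS26 and RPS27L, the cytosolic members with the lowest mean differences after 5 nm particles, had no such run at the listed start (RPS26 at chr12:56041903-56041932 on the plus strand, RPS27L at chr15:63157463-63157492 on the minus strand). The same was true of 3 mitochondrial members described below, MRPS26 (chr20:3046037-3046066, plus strand), MRPS34 (chr16:1773120-1773149, minus strand) and MRPL40 (chr22:19432530-19432559, plus strand).
RPS26: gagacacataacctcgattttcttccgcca
RPS27L: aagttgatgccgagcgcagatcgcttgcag
MRPS26: cggcaccgcggccgcagtgaggagactcgg
MRPS34: cggccggaccgctgaggacgcggacccgcc
MRPL40: acgcccggaagcggcgagggtagccatgac

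In the region from 250 bases before to 50 after each start, read on both strands, the letters AAGATGG, a core bound by the factor YY1, occurred at 26 mitochondrial starts (32.1%) and 5 cytosolic starts (9.62%), against 6.04% of all starts. CCGGAAGT, a core of the ETS family with GABP, occurred at 14 mitochondrial (17.3%) and 8 cytosolic starts (15.4%), against 5.34% of all. GCGCA followed by any base and GCGC, the core of the nuclear respiratory factor NRF-1, occurred at 10 mitochondrial (12.3%) and 5 cytosolic starts (9.62%), against 7.39% of all. Each motif was counted on its own, so matches of different motifs may overlap. These are matches of letters, and no binding was measured.

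The endothelial markers PECAM1, TIE1, ESAM and ICAM2 lay between 9.40 and 12.54 on every array of the line labelled endothelial. KDR lay between 6.96 and 8.50 and ERG between 7.69 and 8.77. Lower values were read for CLDN5 (6.54 to 6.90) and VWF (5.84 to 6.07), both above the array medians, and EMCN was at 3.49 or below throughout. Array medians were 5.15 to 5.64, and 10764 to 11944 genes per array reached a log2 intensity of 5. Arrays that share a number held exactly equal values for many genes. Of the cytosolic members, 37.5%, 35.4% and 33.3% had 1 identical value on all 3 arrays of numbers 1, 2 and 3, as did 19.2%, 28.8% and 27.4% of the mitochondrial members and 39.1%, 35.7% and 46.7% of all tested genes. Levels were also offset between numbers. No source used here states whether the authors ran RMA on the 3 arrays of a number at a time, so shared handling and separate processing cannot be told apart. For that reason differences are given within each number throughout, as exposed minus control on the log2 scale.

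The first question was whether 5 nm particles went with other levels of ribosomal protein mRNA. No single member passed the test: limma, on all 9 arrays with group means, called 0 of the 121 members at a Benjamini-Hochberg adjusted p under 0.05, and 9 of all 12155 genes (0.0740%). No member had an unadjusted p under 0.05 in that fit, against 36 genes lower and 165 higher overall. With the replicate number as a block, which the arrays' pairing supports, again 0 members passed, and 79 genes did (0.650%). An unadjusted p under 0.05 with the block and a lower value was found for 23 mitochondrial and 3 cytosolic members, and for 8.83% of all tested genes. No member had such a p with a higher value, against 5.48% of all genes.

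As a group, mitochondrial members were lower after 5 nm particles in each of the 3 numbers. In number 1, 53 of 73 were lower than control, 18 were identical and 2 were higher. In number 2 the counts were 48, 22 and 3, and in number 3 they were 44, 24 and 5. The median differences were -0.0355, -0.111 and -0.0320, where the median over all tested genes was 0 in every number. Over the mean of the 3 numbers, 64 mitochondrial members were lower, 4 identical and 5 higher, with a median of -0.0736, while 5477 of all genes were lower, 2311 identical and 4367 higher. Most sizes were small. Still, 15 members (20.5%) were lower by over 0.2 on the log2 scale, a larger share than the 10.3% of all genes. Only 1 member was higher by as much, against 7.64% of all genes.

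Cytosolic members differed less. They were lower in 23, 22 and 24 of 48 cases in numbers 1, 2 and 3, identical in 22, 19 and 21, and higher in 3, 7 and 3. The median of the mean difference was -0.0189, where that of all tested genes was 0. With each array centred on its median it was 0.0114, where that of all tested genes was 0.0302. The cytosolic median was thus below that of all genes under both scalings. Only RPS26 and RPS27L were lower by over 0.2, a smaller share than the 10.3% of all genes. The mitochondrial median was below the cytosolic one by 0.0355, 0.111 and 0.0312 in numbers 1, 2 and 3. No p is given for a difference between these groups of genes, because genes are not replicates of a condition.

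**Figure D1:**
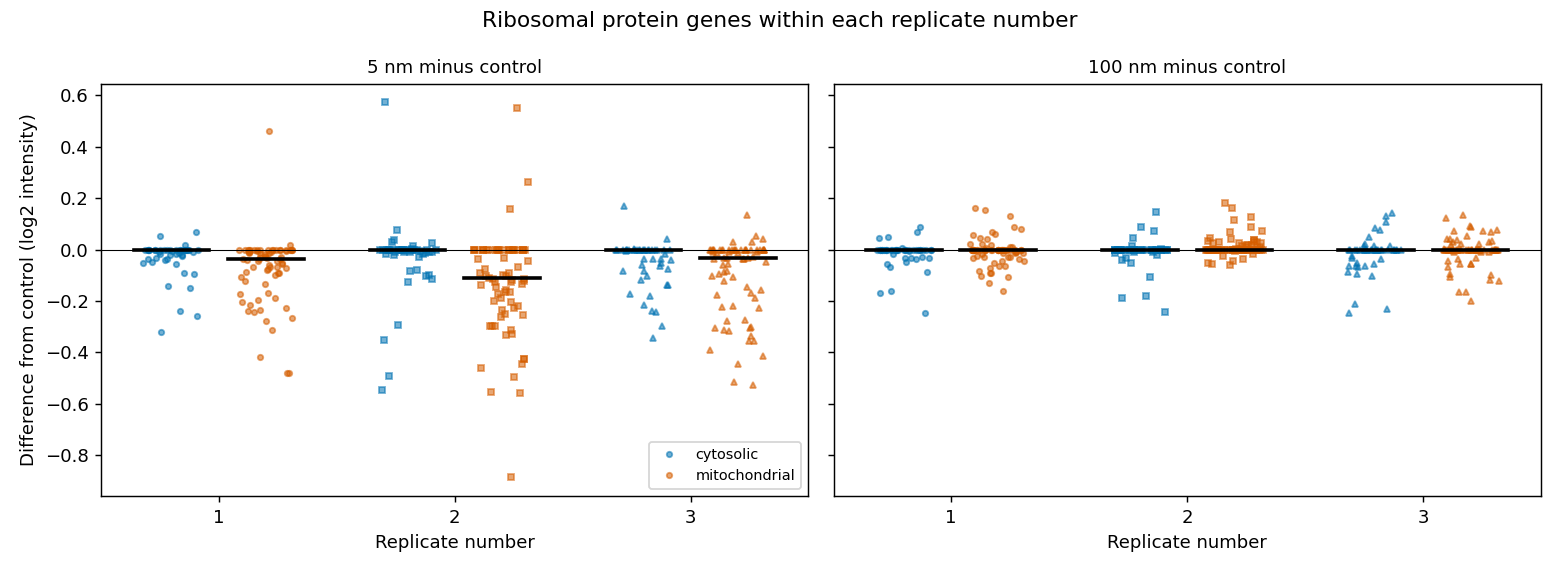
Difference from the control array of the same replicate number (log2 intensity, vertical axis) for each of 48 cytosolic (blue) and 73 mitochondrial (orange) ribosomal protein genes, by replicate number (horizontal axis), after 5 nm (left) and 100 nm silver (right). Points are genes and black lines are medians; after 5 nm particles the mitochondrial medians are -0.0355, -0.111 and -0.0320, and after 100 nm particles all 6 medians are 0.

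Members that were lower in all 3 numbers gave the same contrast. They made up 28 of 73 mitochondrial members (38.4%), 8 of 48 cytosolic members (16.7%) and 13.4% of all tested genes. No member was higher in all 3 numbers, against 8.03% of all genes. The cytosolic share was therefore near the background, and it was 3 of 48 with arrays centred on their medians. The mitochondrial count was 22 under that centring, where 11.0% of all genes were lower in all 3 numbers. After quantile normalization of all arrays together it was 32, where the background was 32.4%, so the mitochondrial share stood much closer to that of all genes under that scaling. With a number left out it was 33 to 39, against 16.4% to 22.5% of all genes.

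**Figure D2:**
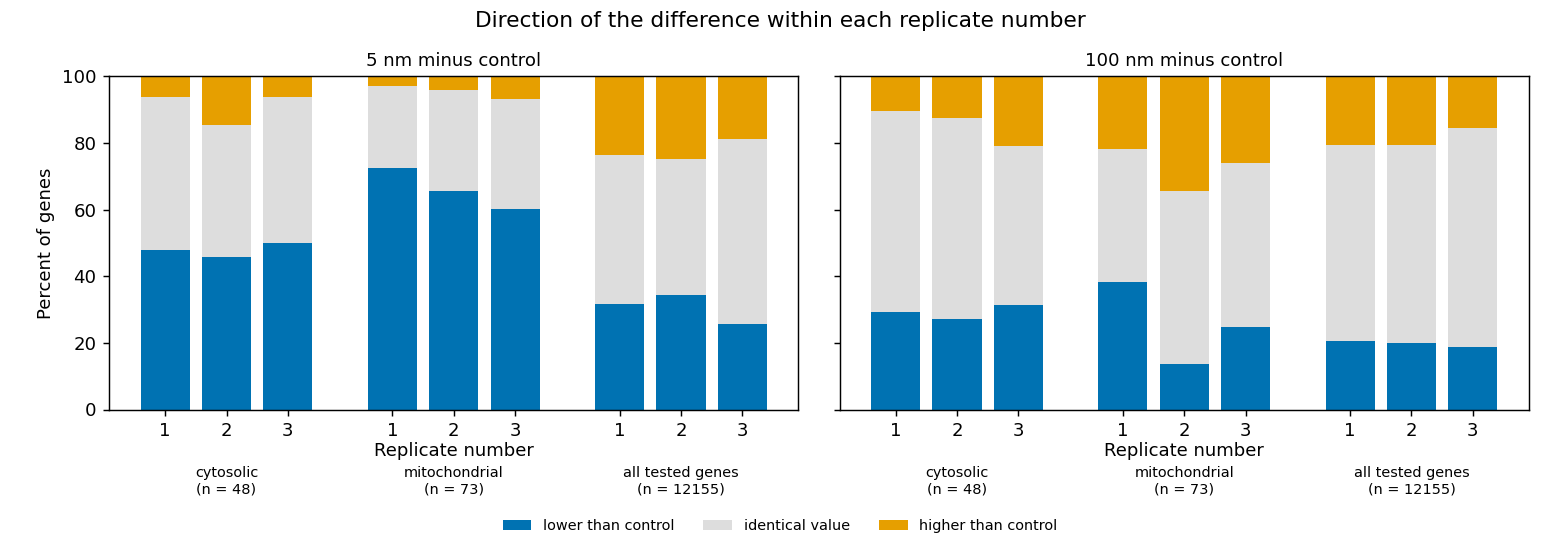
Percent of genes (vertical axis, from 0 to 100) that were lower than (blue), identical to (grey) or higher than (orange) the control array of the same number, for numbers 1 to 3 (horizontal axis), in 48 cytosolic members, 73 mitochondrial members and all 12155 tested genes. After 5 nm particles (left) 72.6%, 65.8% and 60.3% of mitochondrial members were lower, against 31.7%, 34.5% and 25.7% of all genes; the right panel shows 100 nm particles.

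Brighter genes differed from control more often, in both directions, and the sets were therefore also read above a common floor, which does not make their brightness equal. Among tested genes with a mean log2 intensity of at least 8, 25.2% of 3918 were lower, 15.5% higher and 5.69% identical in all 3 numbers, against 13.4%, 8.03% and 19.0% of all tested genes. The median difference above the floor was -0.0226. Of the 46 mitochondrial members above that level, 23 were lower in all 3, with a median of -0.0919. Of the 32 cytosolic members above it, 7 were, with a median of -0.0234. Within the mitochondrial set, 20 of the 36 brighter members and 8 of the 37 dimmer ones were lower in all 3 numbers. The part of brightness in these shares was not tested further.

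Members with MRPS names and members with MRPL names both contributed. All 25 tested MRPS members had a negative mean difference, with a median of -0.0896, and 11 were lower in all 3 numbers. Of the 48 MRPL members, 39 had a negative mean, with a median of -0.0718, and 17 were lower in all 3. This split is by name only. The 44 members whose proteins have a bacterial family name had a median of -0.0537, and the 29 others, mostly proteins found only in mitochondria, had one of -0.0977. Members lower in all 3 numbers were 17 and 11 of these classes, which are near-equal shares (38.6% and 37.9%).

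**Figure D3:**
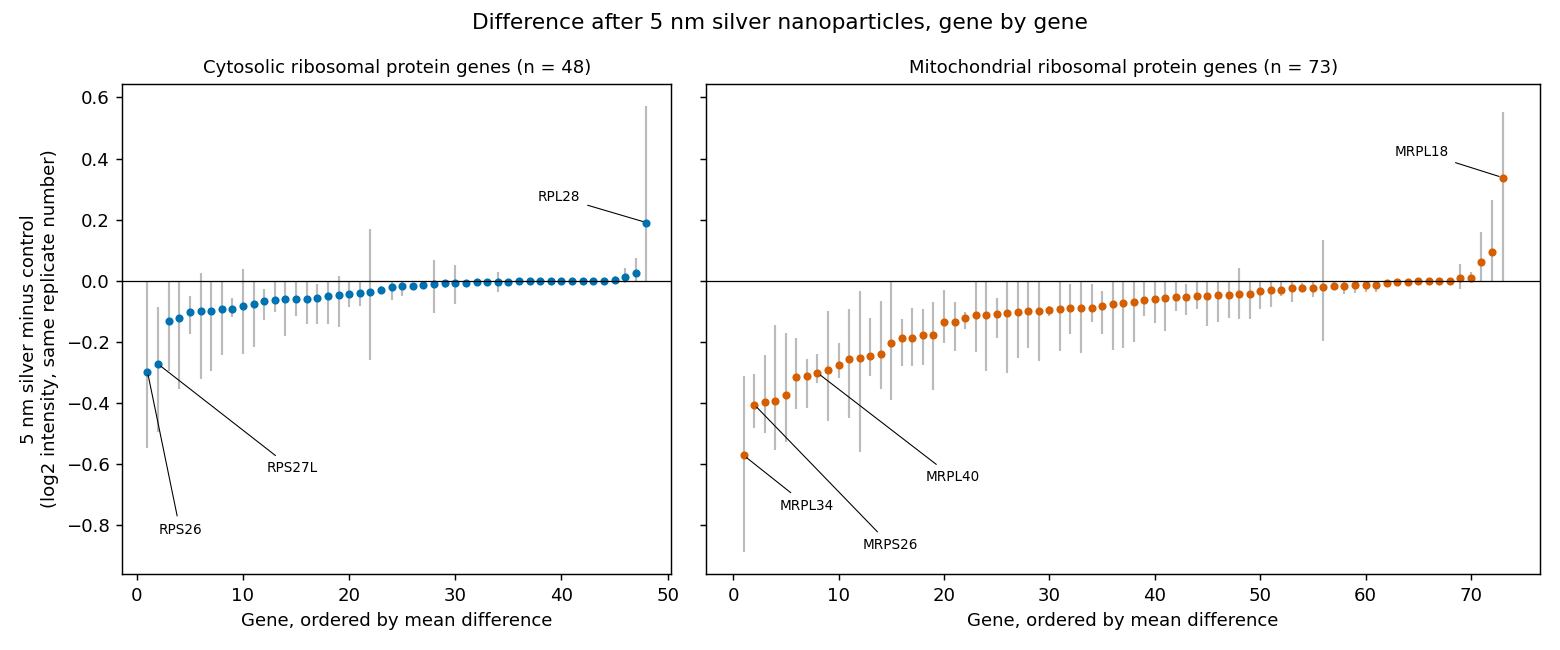
Mean difference after 5 nm silver (log2 intensity, vertical axis) for each gene, ordered from lowest to highest (horizontal axis), in the cytosolic (left) and mitochondrial set (right). Points are means of the 3 replicate numbers and grey lines run from the lowest to the highest number. Below 0 are 64 of 73 mitochondrial and 36 of 48 cytosolic means. With arrays centred on their medians the cytosolic median is 0.0114 and that of all tested genes 0.0302.

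Among large-subunit members of the mitochondrial ribosome, MRPL34, the counterpart of bacterial L34, had the lowest mean difference after 5 nm particles. Its log2 intensity was 11.55, 10.79 and 10.95 on control arrays 1, 2 and 3, 11.24, 9.90 and 10.43 after 5 nm particles, and 11.51, 10.80 and 10.95 after 100 nm particles. Each 5 nm array was below the other 2 arrays of its number, although the groups overlapped when numbers were mixed. The difference from control was -0.31, -0.89 and -0.51 (mean -0.57 ± 0.29, SD, n = 3), a level 1.49-fold lower. The 95% interval was -1.36 to 0.22 without and -0.93 to -0.21 with the block, and limma's adjusted p was 1 without and 0.180 with it.

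MRPL16, which sits near the peptidyl transferase centre, read 9.24, 7.98 and 8.12 in control cells and 8.76, 7.43 and 7.97 after 5 nm particles. Its difference was -0.39 ± 0.22 (SD, n = 3; adjusted p = 0.234 in limma with the block). MRPL15, a core protein with a bacterial counterpart, read 10.98, 10.60 and 10.32 against 10.73, 10.10 and 9.88, a difference of -0.40 ± 0.14 (SD, n = 3; adjusted p = 0.178 in limma with the block). Both were lower in every number.

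MRPL40, a protein of the mitochondrial large subunit encoded in the 22q11 deletion region, differed by a similar amount in every number. It read 9.73, 9.24 and 8.88 in control cells, 9.49, 8.91 and 8.55 after 5 nm particles and 9.66, 9.17 and 8.87 after 100 nm particles. The difference after 5 nm particles was -0.24, -0.33 and -0.34 (mean -0.30 ± 0.05, SD, n = 3), with an interval of -0.38 to -0.22 and an adjusted p of 0.0514 in limma with the block. MRPL38, chosen after its values were seen because its adjusted p with the block was equal to that of MRPL40, differed by only -0.11, -0.16 and -0.10. MRPL58, a peptidyl-tRNA hydrolase built into the large subunit that frees stalled chains, was lower by 0.19, 0.09 and 0.28.

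Of the small subunit, MRPS26, a protein without a bacterial counterpart, read 9.28, 8.23 and 8.33 in control cells and 8.80, 7.80 and 8.02 after 5 nm particles. All 3 exposed arrays lay below the control of their number by at least 0.31, and the mean difference was -0.40 ± 0.09 (SD, n = 3; adjusted p = 0.101 in limma with the block). MRPS34, another mitochondrial addition to the small subunit, read 10.59, 9.78 and 9.68 against 10.42, 9.36 and 9.15, a difference of -0.37 ± 0.18 (SD, n = 3). MRPS23 read 9.65, 8.02 and 8.38 against 9.23, 7.69 and 8.20, a difference of -0.31 ± 0.12 (SD, n = 3). MRPS12, the counterpart of the bacterial decoding-centre protein S12, read 8.56, 7.67 and 8.16 against 8.28, 7.55 and 8.002. With the block, limma's adjusted p was 0.162 for MRPS34, 0.0967 for MRPS23 and 0.134 for MRPS12.

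Other mitochondrial members fixed for their roles differed little or unevenly. MRPL41, also described as a pro-apoptotic factor, differed by -0.22, 0 and -0.39. MRPL10, the base of the stalk that binds translation factors, differed by 0, 0 and 0.03. MRPS30, once named as a cell death protein, differed by 0, 0 and -0.01. MRPS18A and MRPS35 had means of -0.04 and -0.06. Identical values in all 3 numbers were found for 4 mitochondrial members, MRPL21, MRPL23, MRPL32 and MRPL44, named after their values were seen.

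MRPL18 went the other way. It encodes a protein of the large subunit, and its mRNA is known to yield a cytosolic form during heat stress. It read 9.46, 8.93 and 8.85 in control cells, 9.92, 9.48 and 8.85 after 5 nm particles and 9.45, 8.93 and 8.85 after 100 nm particles. Numbers 1 and 2 were higher by 0.46 and 0.55, and number 3 was identical in all 3 groups. The mean difference was 0.34 ± 0.30 (SD, n = 3), with an interval of -0.02 to 0.69 and an adjusted p of 0.346 in limma with the block. Without array 3 of the 5 nm group it was 0.51 with an adjusted p of 0.0159 in the same fit, so the call depends on that array. Leaving out that array raised the genes called among all 12155 from 79 to 446, so more calls were not particular to MRPL18.

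RefSeq lists 3 starts for MRPL18. Paired heat shock element units, facing GAA and TTC triplets a pair of bases apart, which are the letters read by heat shock factors, occurred around 2 of them: GAANNTTC around the first and the second, TTCNNGAA around the second only, and neither around the third. They are printed because MRPL18 had the highest mean of all members. Capitals mark GAANNTTC in the first window (chr6:159789815-159789844, plus strand) and TTCNNGAA in the second (chr6:159789867-159789896, plus strand).
MRPL18 first window: gggaagaggttGAACCTTCgcctcaaacga
MRPL18 second window: attctagtgccTTCTAGAAaaggttgtaag

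GAANNTTC occurred at 5.67% and TTCNNGAA at 6.73% of all starts from 250 bases before to 50 after, on both strands. Among mitochondrial starts the counts were 7 of 81 (8.64%) and 9 of 81 (11.1%). Binding of a heat shock factor was not measured in these cells.

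**Figure D4:**
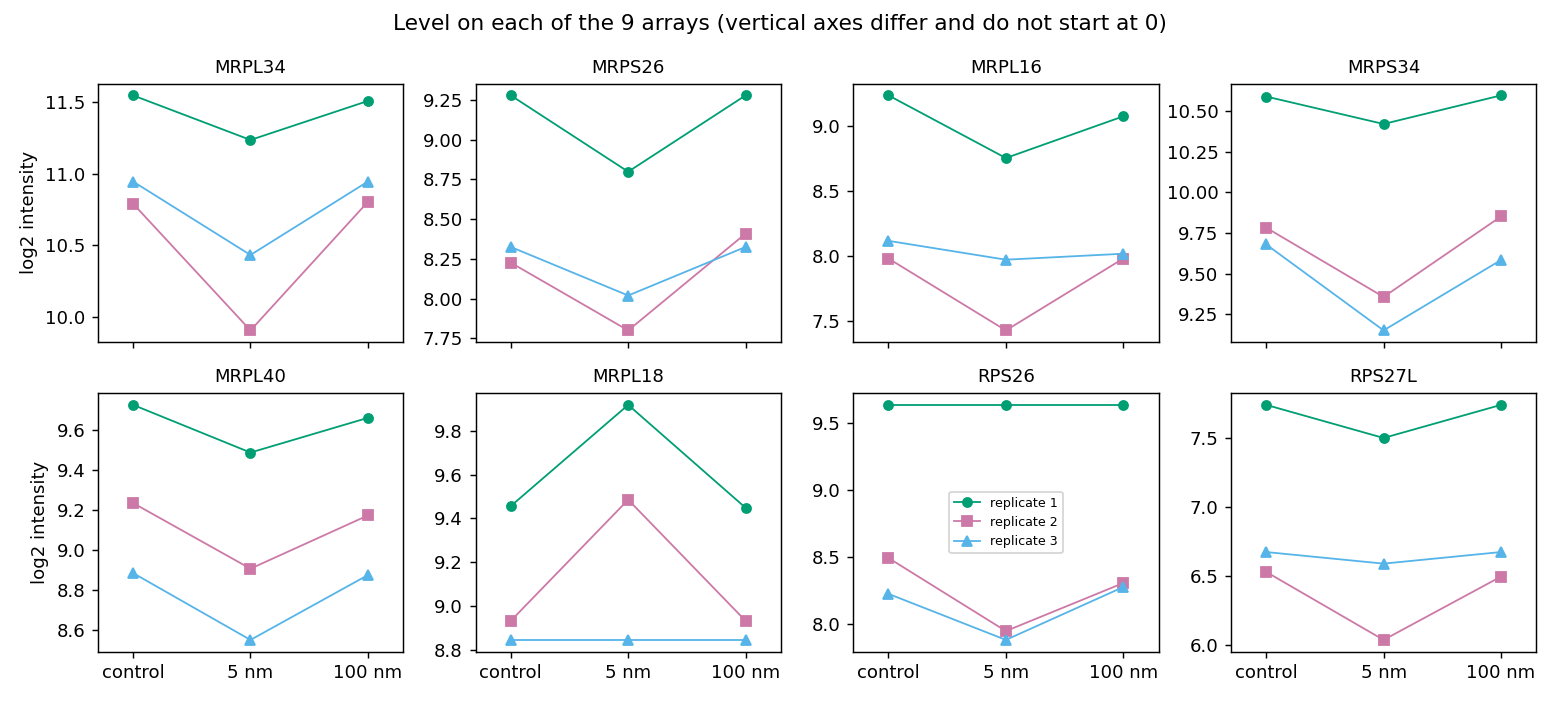
Log2 intensity (vertical axis, a separate range in each panel that does not start at 0) of 8 members on each of the 9 arrays, by group (horizontal axis); lines join the arrays of 1 replicate number. In MRPL34, MRPS26, MRPL16, MRPS34, MRPL40 and RPS27L the 5 nm array is the lowest of its number in all 3 numbers, MRPL18 is higher in numbers 1 and 2 and identical in number 3, and RPS26 is identical in number 1.

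Of the cytosolic small subunit, RPS27L had the lowest mean difference among members lower in all 3 numbers. It is a paralog of RPS27 that p53 is known to induce. It read 7.74, 6.53 and 6.67 in control cells, 7.501, 6.04 and 6.59 after 5 nm particles and 7.74, 6.50 and 6.67 after 100 nm particles. The difference was -0.24, -0.49 and -0.08 (mean -0.27 ± 0.21, SD, n = 3; adjusted p = 0.291 in limma with the block). The probe set that stood for RPS27 differed by -0.15, 0.01 and -0.002.

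RPS26, which lines the mRNA exit channel, had the lowest mean difference of the cytosolic set. It read 9.64, 8.49 and 8.23 in control cells and 9.64, 7.95 and 7.88 after 5 nm particles, so the difference came from numbers 2 and 3 (mean -0.30 ± 0.28, SD, n = 3; adjusted p = 0.346 in limma with the block). RPS6, the substrate of the S6 kinases, differed by 0, -0.003 and 0, with a block interval of -0.04 to 0.04. RPS19, the protein most often mutated in Diamond-Blackfan anaemia, differed by -0.01, 0 and -0.22.

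Of the cytosolic large subunit, 6 members were lower in all 3 numbers and the 5 named by rule were lower by little. RPL36 differed by -0.05, -0.08 and -0.18. RPL12, a protein of the stalk base, read 12.67, 12.30 and 12.37 against 12.62, 12.20 and 12.25, a difference of -0.09 ± 0.03 (SD, n = 3; adjusted p = 0.323 in limma with the block). RPL10A of the L1 stalk, RPL35 beside the exit tunnel and RPL29 had means of -0.09, -0.07 and -0.06. RPL11, which binds MDM2 when ribosome assembly is disturbed, differed by 0, -0.01 and 0, and RPL22 was identical on all 3 arrays of each number.

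RPL28, the cytosolic member with the highest mean difference, read 7.93, 7.43 and 7.16 in control cells and 7.93, 8.001 and 7.16 after 5 nm particles. The difference of 0.57 in number 2 was its only one, and its adjusted p was 0.510 in limma with the block. Cytosolic ribosomal protein genes have many processed pseudogenes of near-identical sequence, and whether the probes tell them apart was not tested. The probe sets used for RPS27, RPS28 and RPS18 have numbers that fall among those of members on another chromosome. Which copies these probe sets read was not tested. A further 32 cytosolic genes that RefSeq lists under these names, among them RPLP0, RPLP1, RPLP2, RPSA, RPL5, RPL3, RPL13A and RPS4X, and 4 mitochondrial ones, MRPL12, MRPS18C, MRPS24 and MRPS6, have no named probe set here and were not analysed.

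The assembly and translation machinery around each ribosome was read from fixed lists. Of 24 tested genes for mitochondrial ribosome assembly and RNA modification, 11 were lower in all 3 numbers and 0 higher, against 13.4% and 8.03% of all genes. The median of the mean difference was -0.230, and the medians in numbers 1, 2 and 3 were -0.0835, -0.380 and -0.00694, so number 2 carried most of it. None passed with the block, and 7 had an unadjusted p under 0.05, all lower, against 8.83% of all genes. MRM1, a methyltransferase of the large ribosomal RNA, differed by -0.17, -0.85 and -0.48, and MTERF3, needed for large-subunit assembly, by -0.31, -0.79 and -0.12. Of 9 mitochondrial translation factors, 4 were lower in all 3 numbers, with a median of -0.186 and medians of -0.113, -0.349 and -0.0655 in numbers 1, 2 and 3. MTFMT, which formylates the initiator tRNA, differed by -0.58, -0.98 and -0.12, and MTIF3, an initiation factor, by -0.19, -0.73 and -0.09.

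Of 55 genes for cytosolic ribosome assembly and ribosomal RNA transcription, 14 were lower and 9 higher in all 3 numbers (25.5% and 16.4%), with a median of -0.0271. Both shares were above those of all tested genes. They were near those of tested genes with a mean log2 intensity of at least 8 (25.2% and 15.5%, median -0.0226). TBL3, a component of the small-subunit processome, was the only one past the threshold with the block. It read 9.29, 8.84 and 8.64 in control cells and 9.06, 8.58 and 8.37 after 5 nm particles, and fell by 0.24, 0.26 and 0.27 (adjusted p = 0.00297 in limma with the block, 1 without it, and 0.00297 to 1 over all alternatives). After 100 nm particles TBL3 differed by only -0.0028, -0.0014 and 0. Such near-ties lower the spread that the block fit estimates, and with it the p. Of 15 genes with 5′TOP RNAs that encode no ribosomal protein, 0 were lower and 1 was higher in all 3 numbers, with a median of -0.0145. The shares of all tested genes were 13.4% and 8.03%, and 15 genes are too few to set such counts apart from them. NACA, the nascent-chain chaperone subunit, differed by -0.13, -0.63 and 0, and HNRNPA1, an RNA-binding protein, by 0, -0.54 and 0.

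Ribosomal proteins with other kinds of symbols were listed apart. DAP3, a GTP-binding protein of the mitochondrial small subunit, was higher in all 3 numbers, at 9.07, 8.42 and 8.28 in control cells and 9.33, 8.96 and 8.48 after 5 nm particles. Its difference was 0.33 ± 0.19 (SD, n = 3; adjusted p = 0.188 in limma with the block). PTCD3, another small-subunit protein, differed by -0.14, -0.47 and 0. RPL26L1, a paralog of RPL26, differed by 0, 0.50 and 0, and RPL22L1, a paralog of RPL22, by -0.14, -0.20 and 0.

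The second question was the same for 100 nm particles. No gene passed the test, with or without the block (0% of 12155), and 0 members had an unadjusted p under 0.05 in either limma fit, where the block gave 20 genes lower and 13 higher overall. Mitochondrial members were lower in 28, 10 and 18 of 73 cases in numbers 1, 2 and 3, identical in 29, 38 and 36 and higher in 16, 25 and 19. Cytosolic members were lower in 14, 13 and 15 of 48 cases, identical in 29, 29 and 23 and higher in 5, 6 and 10. All 6 medians were 0.

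No member had a mean difference over 0.2 in size after 100 nm particles. MRPL40 was the only member lower in all 3 numbers, by 0.06, 0.06 and 0.01, against 1.41% of all genes. Higher in all 3 were MRPL20, by 0.06, 0.03 and 0.07, MRPL58, by 0.04, 0.02 and 0.04, and MRPL39, named for completeness, by 0.009, 0.025 and 0.041, against 1.25% of all genes. MRPL34, the member with the lowest mean difference after 5 nm particles, differed by -0.04, 0.01 and 0 after 100 nm particles. The block interval of that difference, -0.37 to 0.35, was wide enough to hold the upper end of its 5 nm interval. Its width comes from a spread estimated over all 3 groups. The direct comparison, 5 nm minus 100 nm particles, had a block interval of -0.92 to -0.20 for MRPL34 (adjusted p = 0.188 in limma with the block).

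The third question was whether the 2 particle sizes differed, which is the direct test of the contrast between both earlier comparisons, as they share the control arrays. Limma called 8 of all genes (0.0658%) without and 75 (0.617%) with the block, and 0 members in either. With the block, an unadjusted p under 0.05 and a lower value after 5 nm particles was found for 25 mitochondrial and 4 cytosolic members, against 8.59% of all genes. The smallest adjusted p of a mitochondrial member with the block was 0.0519. Mitochondrial members were lower after 5 nm than after 100 nm particles in all 3 numbers in 29 of 73 cases (39.7%), cytosolic members in 6 of 48 (12.5%) and all genes in 13.0%.

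The median of the mean difference between sizes was -0.0950 for mitochondrial members. For cytosolic members it was -0.0165. With arrays centred on their medians it was 0.0113, where the median of all tested genes was 0.0278. MRPS26 was lower after 5 nm than after 100 nm particles by 0.47 ± 0.15 and MRPL34 by 0.56 ± 0.32 (SD, n = 3). Their adjusted p-values in limma with the block were 0.0828 and 0.188. Whether fewer cells of a kind or less RNA per cell lies behind a lower intensity cannot be told apart in RNA pooled from a whole dish.

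The summed intensity of the endothelial markers ranged over 13.21 to 13.57 (log2) in control cells, 12.91 to 13.42 after 5 nm and 13.14 to 13.55 after 100 nm particles. Of 11 markers in that list, 9 had a named probe set and 8 were tested. The lung epithelial markers, 9 of 11 tested, ranged over 11.12 to 12.02, 10.90 to 11.92 and 11.04 to 12.06. Of 7 leukocyte markers, 3 were measured, with 11.66 to 12.32, 11.59 to 12.31 and 11.66 to 12.32. That sum came almost wholly from CD68, which read 11.53 to 12.28 over the 9 arrays. LYZ read 6.67 to 7.57 and CD14 read 4.30 to 5.31. The part of such shifts in the differences of the ribosomal protein genes was not tested.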

How the data were processed

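The authors deposited 1 log2 intensity per probe set and array (53617 probe sets), computed by RMA; the submitters' processing notes name Affymetrix Expression Console 1.3.1. Of these, 16098 had 1 gene symbol in the platform annotation and 70.0% had none here. Median polish, the summary step of RMA, can set small differences between a few arrays to exactly 0. Genes were tested in R 4.3.3 with limma 3.58.1 (lmFit, eBayes, group means over 9 arrays, Benjamini-Hochberg adjustment over 12155 genes, threshold 0.05), and the script was tested on simulated data. As a check of pairing, each array's deviations from its group mean were correlated with those of arrays in other groups, giving 0.762 to 0.967 for equal numbers (9 pairs) and -0.582 to -0.265 for unequal ones (18 pairs), so the numbers pair the arrays, whether by handling or by a separate RMA run per number, and a fit with the number as a block stands beside the main one. Alternatives were the filter, the scaling, the probe set rule, an intensity trend and leaving out each array.

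Named members were those past the threshold, the 6 of each set with the largest even difference after 5 nm particles, the 3 after 100 nm particles, the lowest and highest of each set, and members fixed for their roles. From each other list up to 3 called genes or the 2 with the largest difference were named. Members and lists were chosen with earlier results of these data known. Of 8 members with over 1 probe set, RPL41 had 5. With 3 arrays a group, their number limits the precision. The promoter windows are RefSeq's, on GRCh38.p14.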

Additional observations from a re-analysis of the deposited data

How the results depend on the processing

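With the replicate block, the counts of called members stayed at 0 in all 3 comparisons, as they did without a filter, with a mean log2 intensity of at least 6, under both other scalings, with the probe set mean and with an intensity trend. Fitting the block on the 6 arrays of each comparison alone also called 0. Leaving out an array without the block called 0 members, and with the block 0 to 1 cytosolic and 0 to 4 mitochondrial ones after 5 nm particles, and 0 to 1 and 0 to 5 between sizes. Those were MRPL17, MRPL40, MRPS12 and MRPS14 without 5 nm array 1, MRPL22, MRPL38, MRPL9, MRPL58 and RPS15 without 5 nm array 2, and MRPL18, MRPL38, MRPS23, MRPL4, MRPS26 and RPS28 without 5 nm array 3. Which array is left out therefore decides single calls, but these fits also called 131, 326 and 446 of all 12155 genes after 5 nm particles (131, 330 and 449 between sizes), against 79 (75) with all arrays.

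The cytosolic median after 5 nm particles was -0.0170 without a filter, -0.0173 after quantile normalization and 0.0114, reversed, with centred arrays. After 100 nm particles it was -0.00181, -0.00782 and -0.00357, and between sizes -0.0154, -0.00738 and 0.0113, again reversed. The mitochondrial median after 100 nm particles was 0.00242 with centred arrays and 0.000123 after quantile normalization. The gap between both medians after 100 nm particles was 0.00181 without a filter and 0.00794 after quantile normalization. Cytosolic members lower in all 3 numbers were 3 with centred arrays, and 11 to 14 with a number left out. The mitochondrial count was then 33 to 39. Centring moved the median of all tested genes to 0.0302 after 5 nm particles and to 0.0278 between sizes. Both reversed cytosolic medians stayed below these values. The cause of the other changes was not tested.

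Leaving out 1 array without the block leaves the numbers unequal between groups, and the offsets between numbers then enter the difference. After 5 nm particles the cytosolic median ranged from -0.220 to 0.176, the mitochondrial one from -0.312 to 0.151 and the gap from -0.102 to 0.0107. After 100 nm particles the ranges were -0.202 to 0.192, -0.227 to 0.226 and -0.0391 to 0.0531. Between sizes they were -0.215 to 0.175, -0.325 to 0.142 and -0.110 to -0.0151. With the block the mitochondrial median stayed between -0.0870 and -0.0426 after 5 nm particles and between -0.113 and -0.0433 between sizes, and the gap between -0.0699 and -0.0173 and between -0.100 and -0.0342. The gap after 100 nm particles ranged from -0.00508 to 0.0137 with the block, reversed in 2 of 9 fits.

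The precision is limited by 3 arrays a group and by the many exact zeros within a number.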
